A study of Arabidopsis thaliana with 66 samples.

Results

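The triterpene genes described here are 9 of the 27313 loci in the count tables, all on Arabidopsis chromosome 5. They comprise PEN3 (AT5G36150) with CYP716A1 (AT5G36110) and CYP716A2 (AT5G36140), the thalianol cluster genes THAS (AT5G48010), THAH (AT5G48000), THAD (AT5G47990) and THAA (AT5G47980), and the marneral cluster genes MRN1 (AT5G42600) and CYP71A16 (AT5G42590). The set was chosen by the estimated counts of PEN3 and CYP716A2, which were lower on phosphate-free medium in Col-0, and was filled up with genes of the same neighbourhood or of related root pathways. In Col-0 the contrasts of -P against mock, nanoP against -P, nanoP against mock and -P+Th against -P are therefore given as a description, with no test. The other contrasts were tested, including those that set other Col-0 groups or the lines against Col-0 on nanoP, which share some of these libraries.

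Plants make triterpenes from oxidosqualene, which an oxidosqualene cyclase folds into a ring scaffold that cytochrome P450s and acyltransferases then decorate. In Arabidopsis the genes for successive steps of thalianol and marneral metabolism sit side by side in the genome and are known for expression in roots, where thalianol-derived compounds shape the microbes around the root. PEN3, THAS and MRN1 encode the cyclases that make tirucalladienol, thalianol and marneral. THAH hydroxylates thalianol, THAD desaturates the resulting diol and THAA is an acyltransferase of the same pathway, while CYP71A16 oxidises marneral and its alcohol. CYP716A1 and CYP716A2 are P450s known to oxidise pentacyclic triterpenes such as amyrins and lupeol.

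The series measured root RNA in 22 groups of 3 libraries, 66 in all. Col-0 is the wild type, and N8507, N8508 and N9416 are mutant stocks for which no mutated gene is named in the labels. Plants were kept for 14 days on control medium (mock), on medium without phosphate (-P), or on medium without phosphate supplied with nano-hydroxyapatite, a calcium phosphate mineral in nanoparticle form (nanoP). Each medium was also used with thorium, a radioactive heavy metal (+Th); mock+Th libraries of N8507 and N9416 were analysed here. It is not stated whether the libraries of a group came from separate plants, so every p-value measures the spread between libraries, which may be technical.

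Between 9.4 M and 16.76 M reads were assigned per library (median 13.24 M). Libraries numbered 128 to 160 held Col-0 and N8507 with a median of 14.83 M, and those numbered 193 to 225 held N8508 and N9416 with a median of 11.99 M, so between these pairs of genotypes line and library series cannot be told apart. Reads of each root marker list were found in every library. The 3 endodermis markers summed to 102 to 318 CPM (read counts scaled to a common library size) in each library. Other root lists went lower, down to 1.71 CPM for the 3 root cap markers and 0.0858 CPM for the cortex marker. The 6 genes of green tissue summed to at most 47.6 CPM. Of these, RBCS2B had no read in 63 libraries, but RBCS1A lacked reads in only 13 and CAB1 in 15. The libraries labelled Col-0 -P+Th stood apart. Of 41 genes that were under 0.5 CPM in the other 12 Col-0 libraries and expressed at 5 CPM or more in the lines, 1, 14 and 33 reached 1 CPM in replicates 1, 2 and 3, and their summed level was 0.294%, 3.54% and 9.84% of the median sum in the -P+Th libraries of the lines. All 11 genes expressed in Col-0 alone were present in the same 3 libraries. Levels in these libraries are given one by one, except for THAA, and the test that uses them was repeated with replicate 1 alone.

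Promoter sequences of the 6 genes whose levels moved most are shown because several of these genes rose and fell together. They are the 250 bases before the annotated start, from RefSeq build TAIR10.1, written 5′ to 3′ on the gene's own strand. Capitals mark matches, on either strand, to TATAAA (the TATA box core) and TTGAC (the W-box core, bound by WRKY factors).
PEN3 (chr5:14226212-14226461, minus strand): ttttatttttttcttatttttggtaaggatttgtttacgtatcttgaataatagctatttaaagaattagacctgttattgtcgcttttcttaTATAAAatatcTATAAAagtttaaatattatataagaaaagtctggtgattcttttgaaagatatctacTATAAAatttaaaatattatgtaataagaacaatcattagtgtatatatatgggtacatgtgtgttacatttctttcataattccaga
CYP716A2 (chr5:14213294-14213543, minus strand): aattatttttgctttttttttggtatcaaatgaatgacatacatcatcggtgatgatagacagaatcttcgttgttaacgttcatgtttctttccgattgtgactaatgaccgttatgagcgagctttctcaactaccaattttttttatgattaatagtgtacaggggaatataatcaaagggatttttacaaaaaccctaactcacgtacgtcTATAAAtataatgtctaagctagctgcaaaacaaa
THAS (chr5:19456587-19456836, plus strand): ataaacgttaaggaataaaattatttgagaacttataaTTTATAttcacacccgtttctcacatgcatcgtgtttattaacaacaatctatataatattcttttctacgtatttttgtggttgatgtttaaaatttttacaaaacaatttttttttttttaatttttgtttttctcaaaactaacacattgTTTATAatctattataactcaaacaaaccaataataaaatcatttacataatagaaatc
THAH (chr5:19447867-19448116, minus strand): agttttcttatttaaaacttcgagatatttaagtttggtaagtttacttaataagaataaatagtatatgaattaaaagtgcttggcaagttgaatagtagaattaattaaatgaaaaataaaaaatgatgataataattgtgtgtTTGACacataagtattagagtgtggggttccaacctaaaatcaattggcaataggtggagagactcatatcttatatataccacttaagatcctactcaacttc
THAD (chr5:19434508-19434757, plus strand): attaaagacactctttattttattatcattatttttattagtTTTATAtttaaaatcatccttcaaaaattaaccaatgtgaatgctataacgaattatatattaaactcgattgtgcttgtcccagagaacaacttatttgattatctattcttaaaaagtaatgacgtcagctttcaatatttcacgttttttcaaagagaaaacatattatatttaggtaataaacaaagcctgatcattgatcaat
THAA (chr5:19428638-19428887, plus strand): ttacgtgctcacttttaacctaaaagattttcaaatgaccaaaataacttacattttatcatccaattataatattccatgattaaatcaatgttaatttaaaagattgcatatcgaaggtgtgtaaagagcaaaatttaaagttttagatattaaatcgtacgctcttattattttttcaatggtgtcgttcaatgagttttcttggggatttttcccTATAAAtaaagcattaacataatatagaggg
A TATAAA match lay in 8 of the 9 promoters (THAH had none), against 47.4% of 27437 promoters of the same length. TTGAC was found in 4 of the 9, those of CYP716A1, THAH, MRN1 and CYP71A16, against 44.9% of all. Neither the phosphate-response motif P1BS (GNATATNC, in 5.5% of all promoters) nor the G-box (CACGTG, in 6.5%) was found in these windows, and no match overlapped another. The PEN3 gene spans chr5:14220634-14226211 on the minus strand with 13 coding exons, and THAS spans chr5:19456837-19461706 on the plus strand with up to 14. Despite 76.4% identity between the coding sequences of PEN3 and THAS, few stretches of 31 bases occurred at another locus (2.31% in PEN3, 1.03% in THAS, at most 3.36% in any of the 9 genes), so most reads could be assigned to 1 gene.

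In Col-0 on mock, the genes of the thalianol cluster and the PEN3 pair were all expressed, and on -P they were far lower. PEN3 was at 9.05, 9.57 and 9.97 CPM on mock and at 0.0638, 0 and 0 CPM on -P, where 1 read remained of 435. The ratio of pooled CPM was 430-fold lower on -P, with a 95% exact counting interval of 76.7 to 1.7e+04. It covers counting error only and is no test, because PEN3 was chosen for this fall. CYP716A2 was at 20, 11.5 and 20.2 CPM on mock and at 0.255, 0 and 0 CPM on -P, a log2 fold change of -7.47 (SE 0.88). Its neighbour CYP716A1 differed far less, at 20.8 to 27.2 CPM on mock and 12.2 to 16.2 CPM on -P (log2 fold change -0.71, SE 0.24). Mock and -P libraries did not overlap for any of these 3 genes, but PEN3 and CYP716A2 were chosen for this difference. For scale, 6.61% of all genes passed at an adjusted p under 0.05 in the same contrast. The share of all genes without overlap was not computed.

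The thalianol cyclase THAS was at 47.6, 33.5 and 71.4 CPM on mock and at 0.383, 1.03 and 0.507 CPM on -P (log2 fold change -6.28, SE 0.77). The oxidases and the acyltransferase were lower by less: -2.60 (SE 0.39) for THAH, -3.45 (SE 0.68) for THAD and -3.23 (SE 0.46) for THAA on the log2 scale. Per transcript length, THAD led the cluster on mock with 48.6 ± 9.97 TPM (a read share scaled by transcript length; SD, n = 3), followed by THAA with 38.1 ± 2.71, THAS with 19.1 ± 7.06 and THAH with 17.5 ± 4.4. THAS and THAH did not differ beyond their spread. PEN3 was lower per length, at 3.62 ± 0.165 TPM, than CYP716A2 at 16.3 ± 4.74 TPM and CYP716A1 at 14.4 ± 2.06 TPM.

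MRN1 was at the detection limit in every group, with at most 5 reads in a library and 0 CPM in all 3 Col-0 mock libraries. CYP71A16, its neighbour, was low in Col-0 and overlapped between mock (0.134 to 1.5 CPM) and -P (0.0724 to 1.35 CPM).

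Nano-hydroxyapatite left the Col-0 genes at different levels (0.562% of all genes passed against mock and 6.1% against -P). THAA was at 142, 37.4 and 66.6 CPM on nanoP, around its mock level of 54.6 to 62.0 CPM (log2 fold change against mock 0.47, SE 0.41). PEN3, at 0.699, 0.132 and 0.472 CPM, and CYP716A2, at 3.96, 1.12 and 0.809 CPM, lay between mock and -P, with log2 fold changes against mock of -4.44 (SE 0.80) and -3.13 (SE 0.62). THAS, at 6.76, 0.923 and 4.72 CPM, was below mock and overlapped -P. The nanoP libraries spread widely: THAD was at 59.9, 7.05 and 26.0 CPM, and replicate 1 was the highest of the 3 for 7 of the 8 detected genes, all but CYP716A1.

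With thorium on -P, THAH in Col-0 overlapped its mock level and THAS was well above -P (25.4% of all genes passed). THAH was at 43.3, 36.0 and 28.6 CPM on -P+Th, against 3.83, 4.75 and 7.10 CPM on -P (log2 fold change 2.76, SE 0.39). THAS was at 21.1, 16.0 and 12.1 CPM (log2 fold change 4.63, SE 0.76), highest in replicate 1, the library with the least signal of line genes. PEN3 was at 0.994, 0.459 and 0.0677 CPM (4.01, SE 1.38, against 1 read on -P). Its replicate 3 held 1 read, as did -P replicate 1 (0.0638 CPM), so these 2 libraries differ in size alone. CYP716A2 was at 0.663, 1.64 and 0.338 CPM (3.19, SE 1.02), above -P without overlap. PEN3 and CYP716A2 were both far below mock. THAD, at 21.5, 14.7 and 8.6 CPM, differed less (0.91, SE 0.65), and THAA, at 4.67 to 12.8 CPM, overlapped -P (0.51, SE 0.45). CYP716A1 was lower, at 6.38, 5.7 and 3.59 CPM (-1.47, SE 0.25). For every one of these genes but CYP716A2 replicate 1 was the highest of the 3. The heat map of all libraries shows this split within the cluster.

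**Figure D1:**
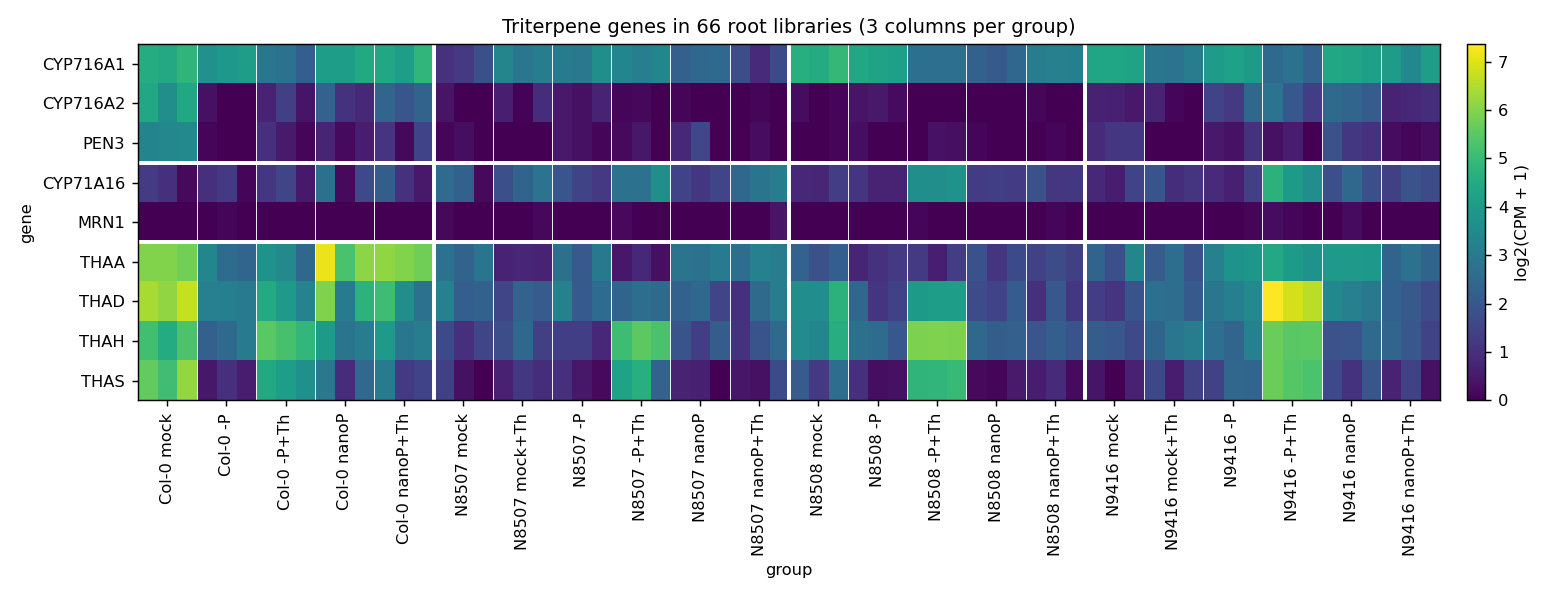
Level of each gene, as log2(CPM + 1) by colour, in all 66 libraries; each group has 3 columns, and thick white lines part the genotypes and the 3 gene neighbourhoods. The thalianol genes and the PEN3 pair are bright on Col-0 mock, while THAS and THAH are bright on -P+Th in all 4 genotypes and MRN1 is dark throughout.

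Adding thorium to nanoP in Col-0 changed no gene of the 8 tested in edgeR's quasi-likelihood test, where 0.105% of 19931 genes passed at an adjusted p under 0.05. None of the 8 had an unadjusted p under 0.05 either, and DESeq2 called 0. THAA was at 69.5, 61.4 and 53.9 CPM on nanoP+Th, close to nanoP and mock. The log2 fold changes ran from -0.88 (SE 0.63) for THAD to 1.24 (SE 0.82) for PEN3, so changes of that size could not be resolved.

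Between the thorium media, nanoP+Th against -P+Th, 5 of 8 genes differed in Col-0, where 37.7% of all genes did. CYP716A1 (log2 fold change 2.06, SE 0.25, adjusted p = 2.95e-05), CYP716A2 (2.1, SE 0.65, adjusted p = 0.0214) and THAA (2.78, SE 0.45, adjusted p = 0.000316) were higher on nanoP+Th. THAS (-2.2, SE 0.62, adjusted p = 0.0131) and THAH (-1.88, SE 0.37, adjusted p = 0.00146) were lower. With -P+Th replicate 1 as the sole library of its group, assumed to vary like the others, CYP716A2 was lost (2.5) and the other 4 stayed past the threshold. CYP716A2 was also lost without -P+Th replicate 1 (1.93) or 3 (1.69) and without nanoP+Th replicate 1 (2.00) or 3 (2.03), and THAS without nanoP+Th replicate 2 (-1.81) or 3 (-1.89).

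**Figure D2:**
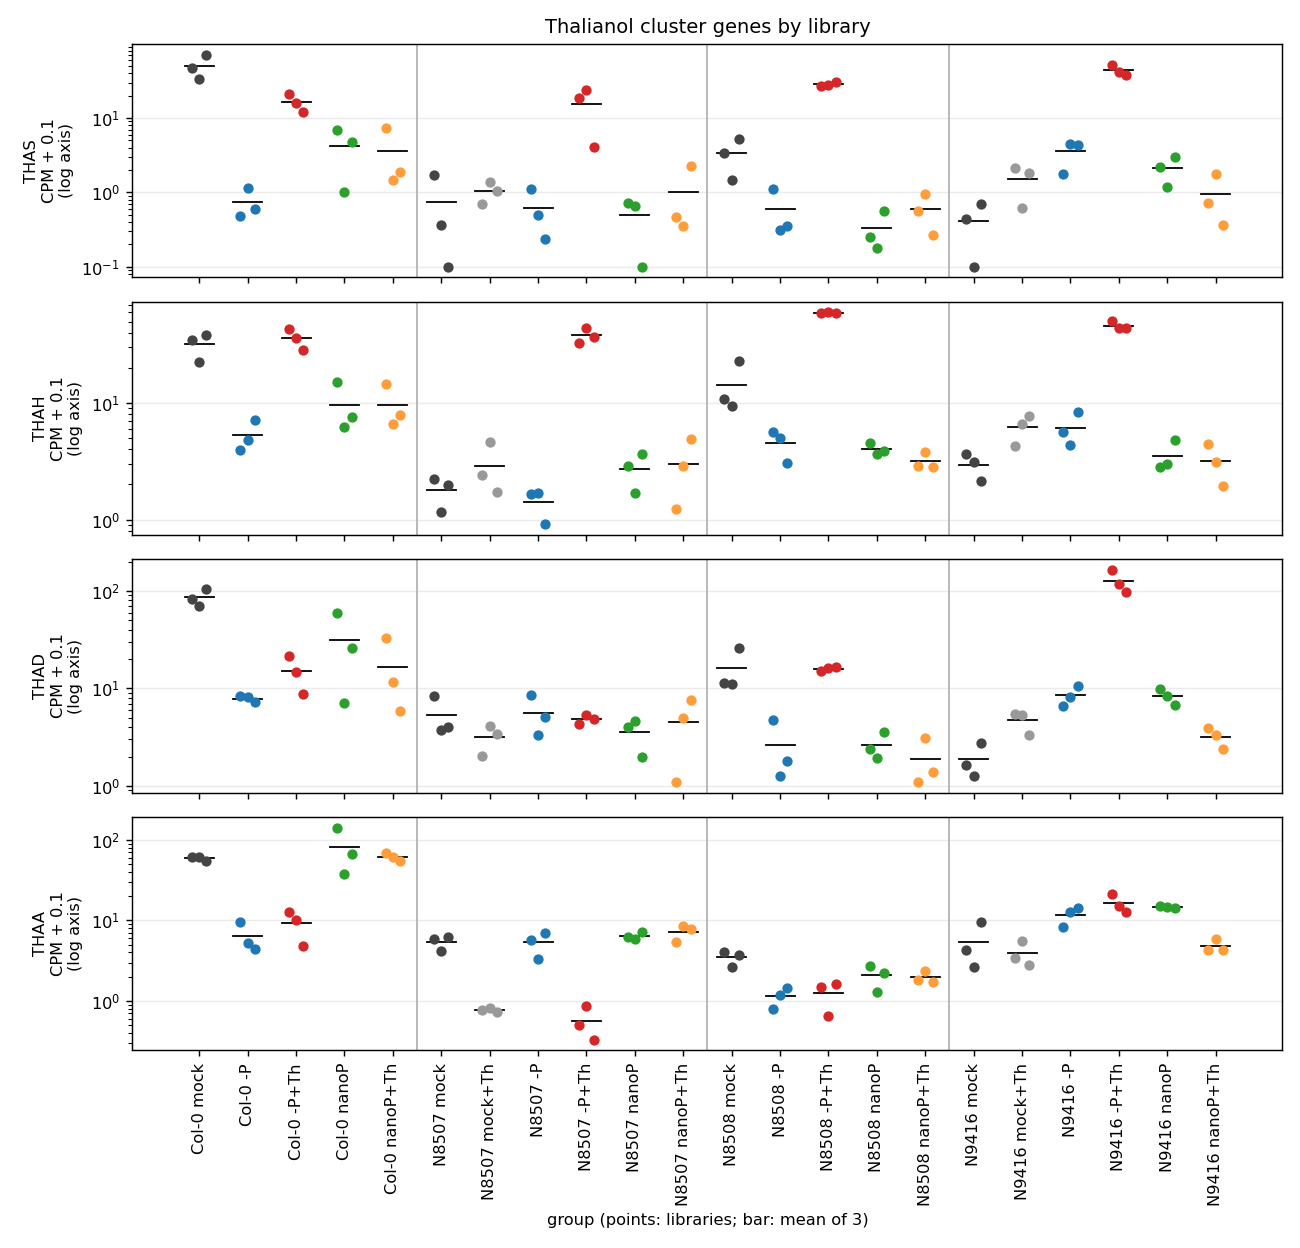
Level of the 4 thalianol cluster genes in each library, as CPM + 0.1 on log axes, by group; points are libraries, coloured by medium, and bars are means of 3. THAS and THAH are high on Col-0 mock and on -P+Th in every genotype, while THAA is high on Col-0 mock, nanoP and nanoP+Th and falls in N8507 wherever thorium is given without nanoP.

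The lines differed in how the same genes answered to -P without thorium. In N8508, 5 of the 6 genes tested passed, all lower on -P, where 9.59% of all genes passed. THAS went from 3.31, 1.36 and 5.21 CPM on mock to 1.01, 0.215 and 0.255 CPM (log2 fold change -2.75, SE 0.58, adjusted p = 0.00712), and THAD from 11.4, 11.1 and 25.6 CPM to 4.63, 1.18 and 1.70 CPM (-2.68, SE 0.46, adjusted p = 0.00172). THAH (-1.70, SE 0.30), THAA (-1.66, SE 0.40) and CYP716A1 (-0.44, SE 0.13) fell as well, with no overlap between groups. Without mock replicate 1, 3 calls remained. CYP716A1 was lost there (-0.47), without mock replicate 3 (-0.32) and without -P replicate 2 (-0.41) or 3 (-0.38), and THAA without mock replicate 1 (-1.53) or -P replicate 1 (-1.45). In a single fit of all 66 libraries 3 genes passed, with THAS (-2.76) and CYP716A1 (-0.44) lost. The sum of 2 phloem markers was higher on -P without overlap (229 to 282 against 124 to 155 CPM), and the other marker lists overlapped. The part of cell makeup was not tested.

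In N9416 the direction was the opposite: 5 of 8 genes passed, all higher on -P, where 38.1% of all genes passed. THAS was at 0.345, 0 and 0.600 CPM on mock and at 1.69, 4.43 and 4.26 CPM on -P (log2 fold change 3.35, SE 0.69, adjusted p = 0.00117). THAD rose from 1.16 to 2.66 CPM to 6.46 to 10.6 CPM (2.2, SE 0.33, adjusted p = 6.17e-05) and CYP716A2 from 0.429 to 0.604 CPM to 1.32 to 4.6 CPM (2.26, SE 0.66, adjusted p = 0.0121). THAH (1.08, SE 0.32) and THAA (1.10, SE 0.35) rose less, and the THAA groups overlapped. Mock levels were low in this line, so even the -P level of THAS stayed below 5 CPM. Without -P replicate 3 only THAS and THAD stayed past the threshold, CYP716A2 being at 1.55, THAH at 0.77 and THAA at 0.94. THAH was also lost without mock replicate 3 (0.89) and in the fit of all 66 libraries (1.07), and THAA without -P replicate 2 (1.04) or mock replicate 1 (0.94) or 2 (0.77). Some marker sums moved without overlap here. Higher on -P were 5 epidermis (52.8 to 102 against 34.1 to 50.3 CPM), 3 endodermis (214 to 251 against 149 to 178 CPM) and 4 meristem markers (38.7 to 44.8 against 24.9 to 28 CPM). Lower were 2 phloem markers (131 to 176 against 197 to 207 CPM). Their part in the result was not tested.

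N8507 had THAS (at most 1.64 CPM) and THAH (at most 2.15 CPM) low on both media, while THAD reached 8.38 CPM and THAA 6.94 CPM. None of the 4 thalianol genes passed the test. CYP716A1 was the exception and the single call among 6 genes (3.9% of all genes passed): it rose from 1.07, 1.32 and 2.51 CPM to 7.17, 6.67 and 11.5 CPM (log2 fold change 2.36, SE 0.37, adjusted p = 0.00101). Tested directly between lines, the -P response of N8508 was below that of N9416 for 4 of 8 genes (7.07% of 20839 genes passed): THAS by -6.12 (SE 1.32), THAD by -4.90 (SE 0.86), THAH by -2.77 (SE 0.57) and THAA by -2.77 (SE 0.62) on the log2 scale. CYP716A1 responded more in N8507 than in N8508 (2.81, SE 0.35; 3.95% of genes passed) and than in N9416 (2.60, SE 0.35; 16.5% passed). THAD passed against N8508 (2.75, SE 0.80, adjusted p = 0.0359), a call lost when any of 7 libraries was left out, with values down to 2.22 without N8508 mock replicate 3.

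Nano-hydroxyapatite without thorium was set against both other media. N8507 had 0 calls among 6 genes for nanoP against -P (4.49% of genes passed; 1 of the 6 had an unadjusted p under 0.05, DESeq2 called 0) and for nanoP against mock (3.05% passed; 1 of the 6, DESeq2 called 1). In N8508, CYP716A1 was the single call against -P (38% of genes passed): it was at 3.86, 3.24 and 4.45 CPM on nanoP and at 17.0 to 20.2 CPM on -P (log2 fold change -2.25, SE 0.15, adjusted p = 4.6e-08). Against mock, 4 of 6 genes passed in N8508, all lower on nanoP (28.9% of all genes passed), namely CYP716A1 (-2.69, SE 0.15), THAS (-3.79, SE 0.63), THAH (-1.87, SE 0.29) and THAD (-2.66, SE 0.45). In N9416, 5 of 8 passed, all higher on nanoP than on mock (14.4% passed), among them CYP716A2 (2.95, SE 0.63), which was at 4.87, 4.24 and 3.39 CPM on nanoP, THAD (2.21, SE 0.33) and THAA (1.45, SE 0.34). The calls of THAS (2.64) and CYP71A16 (1.61) there were lost without mock replicate 1 (2.68 and 1.43) or 2 (2.12 and 1.29) and without nanoP replicate 3 (2.28 and 1.76), and that of CYP71A16 also without nanoP replicate 2 (1.27). Both were lost in the fit of all 66 libraries (2.62 and 1.6). CYP71A16 was the single call of nanoP against -P in N9416 (1.61, SE 0.51; 30.2% passed), and was lost without -P replicate 1 (1.5) or 2 (1.34) or nanoP replicate 2 (1.27) and in the fit of all 66 libraries (1.6).

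**Figure D3:**
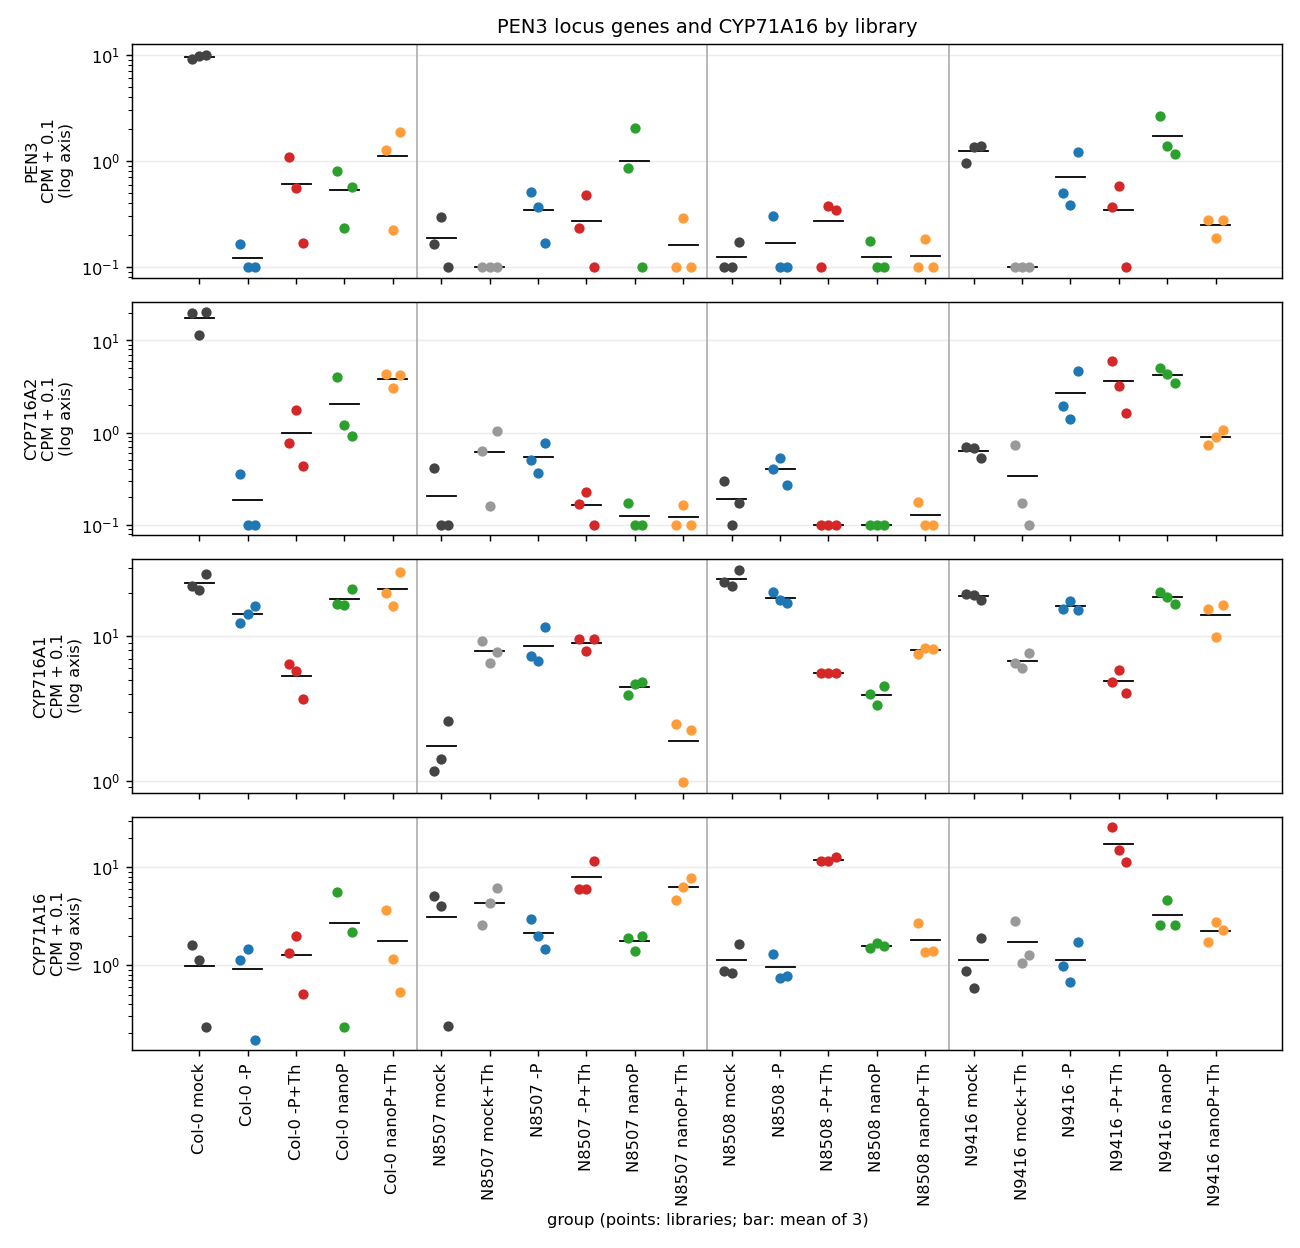
Level of PEN3, CYP716A2, CYP716A1 and CYP71A16 in each library, as CPM + 0.1 on log axes, by group; points are libraries, coloured by medium, and bars are means of 3. PEN3 is above 9 CPM on Col-0 mock and below 3 CPM in every other library, and CYP71A16 is highest on -P+Th in N8508 and N9416.

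Thorium on -P raised THAS and THAH in all 3 lines. In N8507, THAS was at 1.01, 0.400 and 0.135 CPM on -P and at 18.5, 23.5 and 4.03 CPM on -P+Th (log2 fold change 4.90, SE 1.09, adjusted p = 0.0026). In N8508 it went from at most 1.01 CPM to 27.1, 27.6 and 30.8 CPM (5.86, SE 0.51, adjusted p = 3.35e-07), and in N9416 from at most 4.43 CPM to 51.9, 42.0 and 38.2 CPM (3.73, SE 0.41, adjusted p = 2.71e-06). No -P+Th library overlapped the -P libraries of its line, and the N9416 level on -P+Th was in the range of Col-0 mock.

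THAH rose with THAS, to 32.7 to 44.3 CPM in N8507 (log2 fold change 4.86, SE 0.52, adjusted p = 3.4e-06), 59.0 to 60.1 CPM in N8508 (3.76, SE 0.29, adjusted p = 1.03e-07) and 43.9 to 50.2 CPM in N9416 (2.98, SE 0.27, adjusted p = 4.17e-07). The later steps parted between lines. THAD rose to 164, 117 and 97.1 CPM in N9416 from 6.46 to 10.6 CPM (3.96, SE 0.25, adjusted p = 6.4e-09) and to 15.1, 16.0 and 16.3 CPM in N8508 (2.67, SE 0.46, adjusted p = 0.000234), while in N8507 it was at 4.23 to 5.29 CPM with thorium and 3.27 to 8.38 CPM without (-0.21, SE 0.56). THAA fell in N8507 from 5.54, 3.20 and 6.94 CPM to 0.397, 0.756 and 0.230 CPM (-3.38, SE 0.40, adjusted p = 9.59e-06), and did not pass the test in N8508 (0.16, SE 0.44) or N9416 (0.54, SE 0.32). Whether these THAA and THAD responses differ between lines was not tested.

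In the marneral cluster, CYP71A16 rose in the same contrast while MRN1 stayed at 2 reads or fewer per library. CYP71A16 was at 11.6, 11.4 and 12.5 CPM on -P+Th in N8508, against 0.644 to 1.21 CPM on -P (log2 fold change 3.82, SE 0.34, adjusted p = 3.56e-07), and at 25.5, 15 and 11.3 CPM in N9416, against 0.566 to 1.62 CPM (4.10, SE 0.47, adjusted p = 3.69e-06). In N8507 it rose from 1.35 to 2.84 CPM to 5.86 to 11.6 CPM (1.95, SE 0.67, adjusted p = 0.0376), and this call was lost without -P replicate 1 (2.30), 2 (1.89) or 3 (1.72), without -P+Th replicate 3 (1.56) and without the libraries of low effective length (1.54). CYP716A1 fell to 5.46 to 5.49 CPM in N8508 (-1.73, SE 0.14) and 3.95 to 5.73 CPM in N9416 (-1.68, SE 0.18). In all, 4 of 6 genes passed in N8507 (29.8% of all genes did), 5 of 6 in N8508 (47.2%) and 5 of 8 in N9416 (40%). PEN3 and CYP716A2 were below the count filter in N8507 and N8508, where PEN3 had at most 6 reads in a library of these groups, and did not pass in N9416 (-1.17, SE 0.76, and 0.49, SE 0.52).

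Marker levels moved in the same contrast. The sum of the 2 phloem markers was higher on -P+Th than on -P without overlap in each line, at 292 to 379 against 122 to 204 CPM in N8507, 318 to 340 against 229 to 282 CPM in N8508 and 216 to 250 against 131 to 176 CPM in N9416. In N8507 the sums of 5 epidermis markers (35.7 to 51.9 against 73.9 to 113 CPM), 3 endodermis markers (102 to 120 against 219 to 256 CPM) and 2 stele markers (85.3 to 152 against 185 to 218 CPM) were lower with thorium. In N8508 the 4 meristem markers (89.2 to 92.1 against 45.8 to 64.6 CPM) and the 3 root cap markers (9.58 to 12.7 against 1.71 to 7.95 CPM) were higher. Most lists moved in N9416: higher were epidermis (171 to 255 against 52.8 to 102 CPM), root cap (26.8 to 40.1 against 4.15 to 7.42 CPM), the cortex marker (18.1 to 29.3 against 0.0943 to 4.68 CPM), the 2 xylem markers (56.2 to 71.9 against 32.7 to 46.6 CPM), meristem (60.3 to 69.2 against 38.7 to 44.8 CPM) and endodermis (253 to 318 against 214 to 251 CPM), and lower was stele (133 to 163 against 173 to 186 CPM). All of these markers were detected in each of those groups. The part of cell makeup in the results was not tested, and in whole roots fewer cells of a type and less RNA per cell cannot be told apart. The median effective length was under 65% of the median coding length in 4 libraries: N8507 -P+Th replicates 1 (64.5%) and 3 (58.6%), N9416 -P+Th replicate 2 (64.1%) and N8507 nanoP replicate 3 (63%). Without them CYP71A16 in N8507 was the one call lost in this contrast.

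Thorium on full medium was tested in N8507 and N9416. In N8507, mock+Th against mock called 2 of 6 genes (11.8% of genes passed). THAA fell from 5.75, 4.08 and 6.21 CPM to 0.664, 0.729 and 0.624 CPM (log2 fold change -2.97, SE 0.38, adjusted p = 5.78e-05), much as on -P, and CYP716A1 rose from 1.07 to 2.51 CPM to 6.44 to 9.23 CPM (2.26, SE 0.37, adjusted p = 0.000573). THAS and THAH stayed low, at 0.597 to 1.28 and 1.62 to 4.49 CPM with thorium, and did not pass. Marker sums that moved without overlap here were phloem (238 to 296 against 91.8 to 121 CPM), root cap (21 to 23.9 against 8.76 to 16.9 CPM), cortex (5.68 to 8.26 against 2.09 to 4.87 CPM), all higher with thorium, xylem, lower (34.6 to 47.1 against 47.2 to 84 CPM), and green tissue (2.61 to 18 against 0.132 to 0.349 CPM). Their part in the result was not tested.

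In N9416, mock+Th against mock called 5 of 8 genes (51.7% of genes passed). PEN3 went from 0.862, 1.26 and 1.29 CPM to 0 reads in all 3 libraries, at least 15-fold lower with a floor of 3 reads over the group (adjusted p = 0.000293). CYP716A1 fell from 17.8 to 19.6 CPM to 5.97 to 7.61 CPM (-1.48, SE 0.17). THAH (1.11, SE 0.32), THAD (1.37, SE 0.35) and THAS (2.1, SE 0.79) rose, but to at most 7.61, 5.40 and 2.03 CPM, and THAS overlapped and was lost without mock replicate 1 (2.14) or 2 (1.57) or mock+Th replicate 1 (1.70) or 3 (1.94). In the fit of all 66 libraries THAS (2.08) and THAD (1.35) were lost. Several marker sums were higher with thorium without overlap: epidermis (67.1 to 106 against 34.1 to 50.3 CPM), root cap (18.5 to 24.6 against 3.28 to 7.03 CPM), cortex (7.98 to 25.4 against 0.0858 to 0.431 CPM), meristem (53.3 to 70.5 against 24.9 to 28 CPM) and green tissue (6.5 to 45.9 against 0 to 0.429 CPM). Their part in the result was not tested.

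Comparisons of the media under thorium were added after these values had been seen. In N8507, -P+Th against mock+Th called 2 of 6 genes (20.6% of genes passed), THAS (4.03, SE 1.02, adjusted p = 0.0102) and THAH (3.75, SE 0.48, adjusted p = 5.05e-05), both higher on -P+Th; THAS was lost without mock+Th replicate 1 (3.80). In N9416, 6 of 8 passed, all higher on -P+Th (18.3% passed), from 2.12 (SE 0.35) for THAA to 4.99 (SE 0.46) for THAS. The thorium effect on -P exceeded that on mock for THAH in N8507 (4.12, SE 0.69, adjusted p = 0.000723), where CYP716A1 went the other way (-2.16, SE 0.50) and 13.7% of genes passed. In N9416 it did so for THAH (1.87, SE 0.42), THAD (2.60, SE 0.45) and CYP71A16 (3.44, SE 0.75), where 12.9% passed. PEN3 also passed (adjusted p = 0.0405), with no read on mock+Th. Thorium did not raise PEN3 on -P, where its mean was 0.248 CPM with thorium and 0.598 CPM without. PEN3 was lost in 9 of the 12 fits that left out a library, and CYP71A16 without mock replicate 3 (2.75). With all 66 libraries in 1 fit, PEN3, CYP71A16 (3.41) and THAD (2.56) were lost. In the fits of single genotypes THAS did not pass for this difference in N8507 or N9416, so a different thorium effect on the 2 media was not shown for it.

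**Figure D4:**
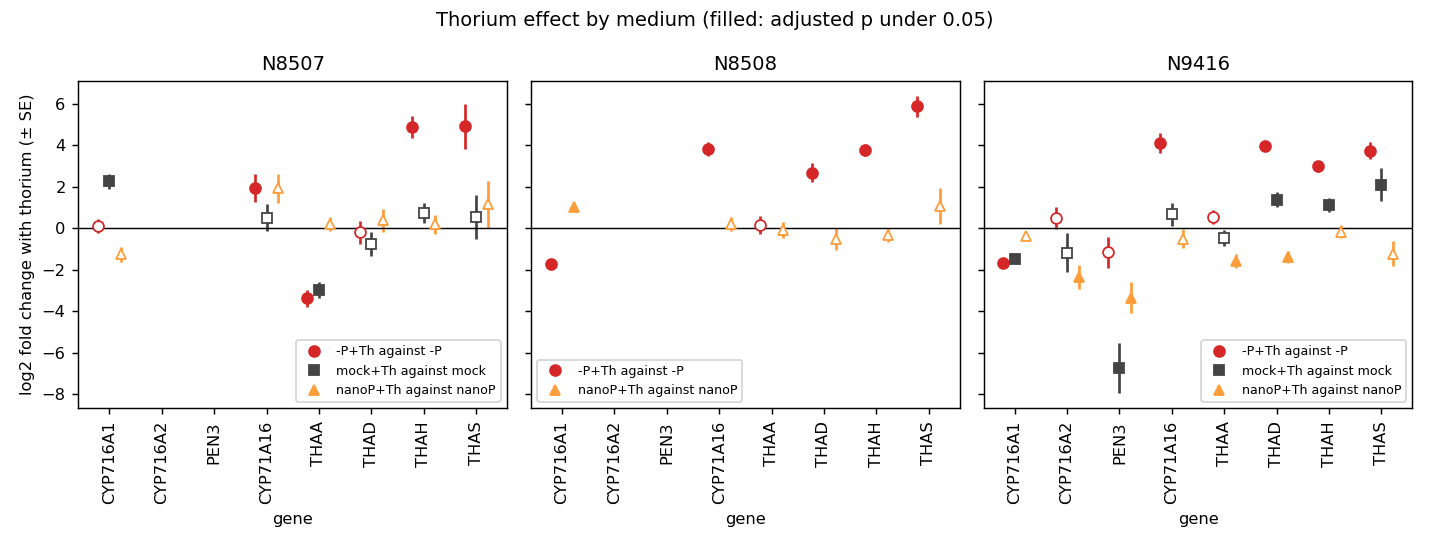
Log2 fold change with thorium (± SE, n = 3 libraries per group) of each tested gene on -P, mock and nanoP in the 3 lines; filled symbols have an adjusted p under 0.05, and genes without a point were below the count filter. THAS and THAH are raised by 2.98 to 5.86 on -P, and THAA falls in N8507 on -P and mock.

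With nano-hydroxyapatite present, neither THAS nor THAH passed the test for thorium in any line. For THAS the log2 fold changes were 1.15 (SE 1.13) in N8507, 1.07 (SE 0.86) in N8508 and -1.24 (SE 0.61) in N9416, so changes of that size could not be resolved, and for THAH they were 0.18 (SE 0.47), -0.35 (SE 0.34) and -0.17 (SE 0.33). In N8507 no gene of 6 passed for nanoP+Th against nanoP (4.65% of genes did; 2 of the 6 had an unadjusted p under 0.05, DESeq2 called 1), and THAA was at 5.35, 8.45 and 7.65 CPM against 5.82 to 7.14 CPM. N8508 had 1 call of 6 (16.4% passed), CYP716A1, which rose from 3.24 to 4.45 CPM to 7.49 to 8.17 CPM (log2 fold change 1.04, SE 0.15, adjusted p = 0.000395). In N9416, 4 of 8 genes passed, all lower (21.7% passed): PEN3 from 2.55, 1.27 and 1.06 CPM to 0.180, 0.0888 and 0.175 CPM (-3.35, SE 0.73, adjusted p = 0.00443), CYP716A2 (-2.35, SE 0.59), THAD (-1.39, SE 0.30) and THAA (-1.59, SE 0.35). THAD was lost in the fit of all 66 libraries (-1.41).

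The thorium effect with nanoP minus that on -P was tested as a difference. For THAH it was -4.68 (SE 0.69) in N8507, -4.10 (SE 0.44) in N8508 and -3.16 (SE 0.43) in N9416, all past the threshold. THAS passed in N8508 (-4.79, SE 1.23, lost without nanoP replicate 3 at -3.85 and in the fit of all 66 libraries at -4.77) and N9416 (-4.97, SE 0.72) and not in N8507 (-3.75, SE 1.57). In N8507 the other call was THAA (3.58, SE 0.52), which kept its level with nanoP, so that 2 of 6 genes passed there (24% of all genes), 5 of 6 in N8508 (28.8%) and 7 of 8 in N9416 (20.4%). In N9416 CYP716A2 (-2.84) was lost without -P+Th replicate 1 (-2.25) and in the fit of all 66 libraries (-2.81). Set side by side under thorium, nanoP+Th was below -P+Th for both THAS and THAH in each line, with log2 fold changes of -4.05 and -3.72 in N8507 (4 of 6 genes called, 36% of all), -5.83 and -4.27 in N8508 (5 of 6, 49.1%; CYP716A1, at 0.52, was lost in the fit of all 66 libraries) and -5.68 and -3.93 in N9416 (7 of 8, 44.8%). In N9416 THAD went with them, going from 97.1 to 164 CPM to 2.27 to 3.87 CPM (-5.35, SE 0.28, adjusted p = 1.89e-10), and CYP716A2 (-2.14) was lost without -P+Th replicate 1 (-1.56).

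The lines mostly had less of these transcripts than Col-0 where phosphate came as nano-hydroxyapatite. Outside the -P+Th libraries, 41 genes were expressed in all 3 lines and silent in Col-0, and 11 genes were the reverse. Whether the mutations or other differences from Col-0 underlie the lower levels was not tested. On nanoP, 6 of 8 genes passed in N8507 (27.4% of all genes did), 7 of 8 in N8508 (35.9%) and 3 of 8 in N9416 (26.3%), each of them lower than in Col-0. PEN3 and CYP716A2, chosen by their Col-0 levels, were below the count filter within N8507 and N8508. They entered this fit through reads of other groups, so their calls in those lines are partly set by the choice. THAA showed it most clearly: N8507 had 5.82 to 7.14 CPM, N8508 1.18 to 2.6 CPM and N9416 14.2 to 14.9 CPM, while Col-0 had 37.4 to 142 CPM, with log2 fold changes of -3.69 (SE 0.38), -5.36 (SE 0.43) and -2.5 (SE 0.36). CYP716A2 had 1 read in the 3 N8507 libraries and 0 in those of N8508, which is at least 24.4-fold lower than Col-0, but in N9416 it was at 3.39 to 4.87 CPM and did not pass (1.10, SE 0.63). Col-0 nanoP replicate 1 weighed on some calls: without it THAH was lost in N8508 (-0.78) and N9416 (-0.96) and THAD in N9416 (-0.98). PEN3 in N8508, at 1 read, was lost without Col-0 replicate 1 (-3.15) or 3 (-3.56) and without N8508 replicate 2 (-3.21) or 3 (-3.19).

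On nanoP+Th all 8 genes passed in N8507 (34.1% of all genes did), CYP71A16 higher and the others lower than in Col-0. For PEN3 and CYP716A2 in N8507 and N8508 the limit given for nanoP applies here too. Leaving out 1 library at a time gave 6 to 7 calls in N8507. THAS was lost in DESeq2 (-1.92), and THAS (-1.90) and CYP71A16 (1.86) were lost in a fit of only the genotypes compared. In N8508 7 of 8 passed (36.4%) and in N9416 6 of 8 (25.5%), all lower. CYP716A1 differed by -3.56 (SE 0.26) in N8507, at 0.877 to 2.37 CPM against 16.1 to 27.9 CPM in Col-0, and by -1.42 (SE 0.23) in N8508. PEN3 passed in each line, but on few reads: N8507 had 3, N8508 had 1 and N9416 had 5, against 46 in Col-0, and the N9416 call (-2.71) was lost in 5 of 6 fits that left out a library, with values down to -2.07 without Col-0 replicate 3. Without Col-0 nanoP+Th replicate 1, 3 calls remained in N9416, where THAD was at -1.47 and CYP716A1 at -0.65, and THAS (-0.72) and THAD (-0.94) were lost in N8507 and THAS (-1.63) in N8508. THAS was also lost without N8507 replicate 1 (-1.54) or 2 (-1.47) and, in N8508, without its replicate 3 (-2.4). In N9416 CYP716A1 was lost too without Col-0 replicate 3 (-0.37) or N9416 replicate 2 (-0.42), and CYP716A2 without N9416 replicate 1 (-2.08). CYP71A16 in N8507 (1.85, SE 0.69) was lost without N8507 replicate 2 (1.85) or 3 (1.66) and without Col-0 replicate 2 (1.63) or 3 (1.44). The lines were not tested against Col-0 on mock, where THAS was at 33.5 to 71.4 CPM in Col-0 and at most 1.64, 5.21 and 0.600 CPM in N8507, N8508 and N9416.

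Genes next to those described here were read in the same contrast, -P+Th against -P. Of the 6 loci that flank the thalianol cluster, 3 on each side, 1 passed in N8507, 1 in N8508 and 2 in N9416, where 29.8%, 47.2% and 40% of all genes did, so these counts say little about the neighbours. The call in N8507 was AT5G47950, named THAA2 and an acyltransferase gene of thalianin synthesis, which fell by 4.47 on the log2 scale (SE 0.49), and it rose in N9416 (1.5, SE 0.22). CYP705A12, which lies next to CYP71A16 but was not among the genes described here, rose with CYP71A16. In N8508 CYP705A12 was at 11.4, 15.4 and 17.3 CPM on -P+Th against 0.430 to 1.61 CPM on -P (3.69). In N9416 it was at 29.7, 14.8 and 11.6 CPM against 0.807 to 1.96 CPM (3.89), with a smaller rise in N8507 (2.33). On the far side of MRN1, AT5G42610 fell in all 3 lines (-2.21, -5.75 and -4.64). The plot of neighbours shows both changes.

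**Figure D5:**
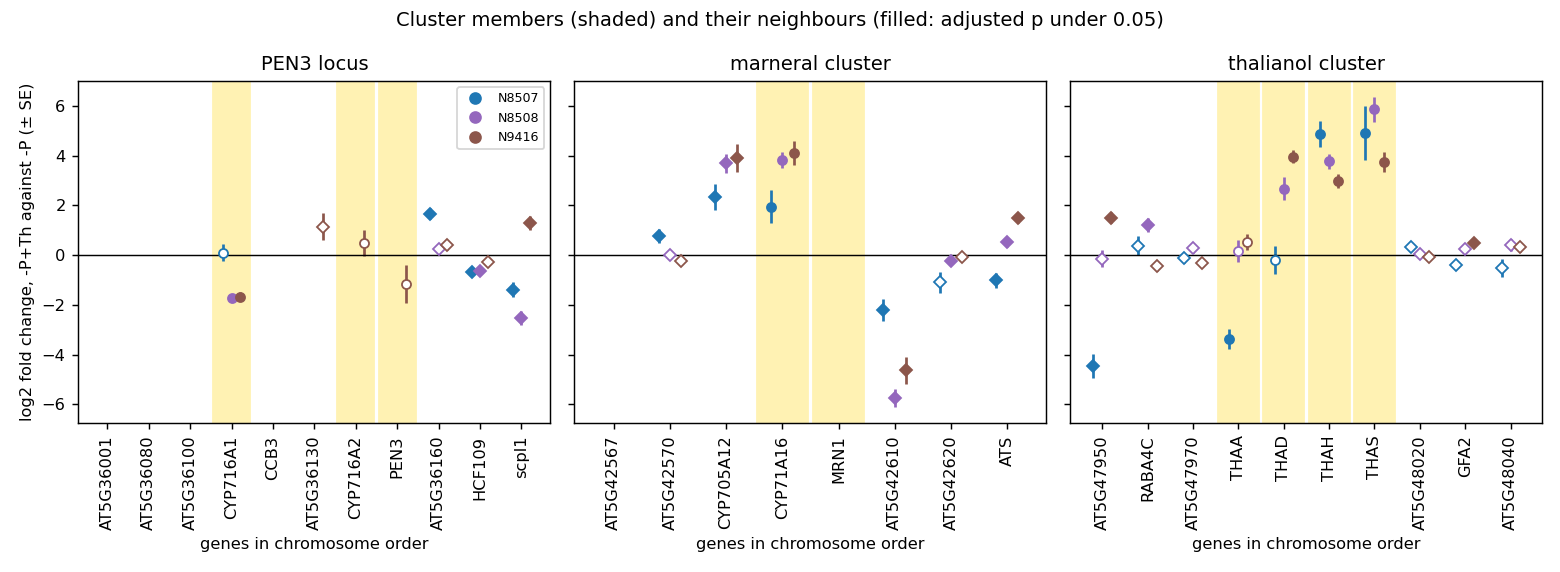
Log2 fold change of -P+Th against -P (± SE, n = 3 libraries per group) along each gene neighbourhood in chromosome order for the 3 lines. Shaded genes, drawn as circles, are those described here, and the others, drawn as diamonds, are genes next to them. Filled symbols have an adjusted p under 0.05, and genes below the count filter have no symbol. THAS, THAH and CYP71A16 are raised in each line, as is CYP705A12 next to CYP71A16.

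Over the 22 group means, THAS ranked most like THAH and THAD among the 8 detected genes (Spearman's rho 0.81 for both) and less like THAA (0.33), and PEN3 was most like THAA (0.65) and CYP716A2 (0.64). These values describe groups that share genotypes and library series. The groups include Col-0 mock and -P, between which PEN3 and CYP716A2 were chosen for their fall. The likeness of those genes is therefore partly set by the choice. The genes most like THAS across the genome were OPR2, GSTZ1 and ASP3 (each 0.85), WRKY31 (0.84) and RAB1C (0.83). Those most like PEN3 were STR18 and ACR12 (0.77), NDA2 and emb1187 (0.75) and PIA1 (0.73), although PEN3 was below 2 CPM in every group mean but Col-0 mock, so that its ranks rest on few reads.

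The rest of the pathway is given for -P+Th against -P, where 29.8% of all genes passed in N8507, 47.2% in N8508 and 40% in N9416. Of 20 genes that supply mevalonate and squalene, 12 rose and 1 fell among 17 tested in N9416 (median log2 fold change 0.55, all genes 0.00), 7 rose and 2 fell of 17 in N8508 (median 0.24, all genes 0.01), and 2 rose and 4 fell of 19 in N8507 (median -0.13, all genes 0.00). The sterol branch, which draws on the same oxidosqualene, had 15 genes tested per line: 9 rose and 1 fell in N9416, 2 and 2 in N8508, and 0 and 7 in N8507. SMT3, a sterol methyltransferase gene, fell in N8507 (log2 fold change -0.94, SE 0.32) and rose in N9416 (1.28, SE 0.17). The 3 other thalianin genes rose in N9416 (THAR1 by 2.29, THAR2 by 1.55, THAA2 by 1.5) and fell in N8507 (-1.18, -3.18 and -4.47), and in N8508 1 rose, THAR2 (1.48). THAR1 and THAR2 are reductase genes of thalianin synthesis.

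Among the 10 other oxidosqualene cyclase genes, 9 were tested per line. BARS1, the baruol synthase gene, rose in all 3 lines (2.12 in N8507, 3.15 in N8508 and 2.97 in N9416) and LAS1, the lanosterol synthase gene, fell in all 3 (-6.31, -4.11 and -1.94). PEN1, the arabidiol synthase gene, fell in N8507 (-1.70) and N9416 (-1), BAS in N8507 (-1.42) and N8508 (-1.29), and LUP2 rose in N9416 (0.97). In the arabidin cluster, where PEN1 and BARS1 lie with P450 genes, 2 of 9 genes rose and 5 fell in N8507, 2 rose and 4 fell in N8508 and 3 rose and 4 fell in N9416, against 29.8%, 47.2% and 40% of all genes passing in either direction. Its P450 gene CYP705A2 rose beside BARS1 in each line (1.55, 2.37 and 2.5).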

How the data were processed

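Per the labels, root RNA was isolated using the Spectrum Plant kit, and NEBNext Ultra II Directional reagents were used for the libraries. Per the submitters' processing notes, the authors used Trimmomatic and Salmon 1.3.0 with TAIR10; Salmon's options, including its strand setting, are not given in the sources used here. The deposited tables hold estimated counts per transcript model, not normalized, from the authors' Salmon run. They also hold deposited TPM values, used here for levels between genes, and deposited effective lengths (other), used to check libraries. The 32875 models are coding sequences (99.99% have a length that is a multiple of 3), so reads in untranslated regions were not counted.

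Estimated counts were summed per locus and rounded. The tables hold no coordinates; positions and promoters came from RefSeq TAIR10.1, whose coding length equals that of the tables in 96.3% of 32140 models and for all 9 genes. Tests used edgeR 4.0.16 in R 4.3.3 (quasi-likelihood F-test, two-sided, TMM, filterByExpr, Benjamini-Hochberg over all genes tested, threshold 0.05). Each genotype had its own fit of all its groups (19762 to 20241 genes), and comparisons between genotypes used all 66 libraries (20839 genes). MRN1 passed no filter; PEN3 and CYP716A2 did not in N8507 and N8508. CPM used TMM factors over all libraries, and SE is the log2 fold change divided by the square root of F. Of 42 comparisons, 38 were tested and 4 of these were added after values had been seen. For a group with 0 reads a floor of 3 reads over the group gives the bound. The scripts were tested on simulated data. Alternatives were DESeq2, RLE normalization, no filter, 1 fit of all libraries, only the genotypes compared, leaving out libraries of low effective length, and leaving out each replicate.

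The genes, the lists and the comparisons were chosen with earlier results of these data known. All 9 genes are named; of other lists at most the 3 largest changes, besides the cyclases; of genes alike, the 5 with the highest rho among genes with a symbol and a mean of at least 1 CPM; and 3 flanking loci on each side. CYP705A2 and LUP2 were named with these after their values were seen, as were the genes in the last section. No 2 libraries were identical. Replicate numbers were given in accession order and pair no samples.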

Additional observations from a re-analysis of the deposited data

Results flagged for a closer look

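The response to -P, the log2 fold change of -P against mock, differed between lines in 7 tests of the difference itself, which is why these values are listed. CYP716A1 responded more in N8507 than in N8508 (2.81) and than in N9416 (2.60). Its mean level was 1.63 CPM on mock and 8.43 CPM on -P in N8507, 25 and 18.4 CPM in N8508 and 18.9 and 16.1 CPM in N9416. For THAD the difference of N8507 minus N8508 was 2.75, the call that rested on single libraries. Its mean level was 5.29 CPM on mock and 5.54 CPM on -P in N8507, and 16 and 2.5 CPM in N8508. The difference thus lay in the fall in N8508. The 4 thalianol genes fell in N8508 and rose in N9416, with differences of N8508 minus N9416 of -6.12 for THAS, -4.90 for THAD, -2.77 for THAH and -2.77 for THAA. Both lines belong to libraries 193 to 225.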

How the results depend on the processing

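The 141 calls on single genes were recomputed in alternative fits, which gave 1687 values, many of them from the same fit. Of these values, 1576 kept direction and threshold, 111 kept the direction but missed the threshold, and 0 reversed. The number of genes called moved by more than 1.5 times in these cases. With all 66 libraries in 1 fit it was 1 (from 0) for N8507 nanoP against -P, 2 (from 0) for N8507 nanoP against mock, 2 (from 0) for N8507 nanoP+Th against nanoP, 3 (from 5) for N8508 -P against mock, 2 (from 1) for N8508 nanoP against -P, 0 (from 1) for N9416 nanoP against -P, 3 (from 5) for N9416 nanoP against mock and 3 (from 5) for N9416 mock+Th against mock. For the differences of thorium effects that fit gave 4 (from 2) for nanoP minus -P in N8507, 4 (from 2) for -P minus mock in N8507 and 1 (from 4) for -P minus mock in N9416. DESeq2 gave 1 (from 0) for N8507 nanoP against mock, 1 (from 0) for N8507 nanoP+Th against nanoP, 2 (from 1) for N9416 nanoP against -P and 3 (from 1) for N8507 minus N9416 in the response to -P. No filter gave 2 (from 1) for N8508 nanoP against -P. Leaving out libraries of low effective length gave 1 (from 0) for N8507 nanoP+Th against nanoP and 2 (from 1) for N8507 minus N9416 in the response to -P, for which a fit of those genotypes alone also gave 2. The cause was not tested.

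Leaving out 1 library at a time gave 3 to 5 calls for Col-0 nanoP+Th against -P+Th, 0 to 1 for N8507 nanoP against mock, 1 to 2 for N8507 -P+Th against mock+Th, 3 to 5 for N8508 -P against mock, 1 to 2 for N8508 nanoP against -P, 2 to 5 for N9416 -P against mock, 0 to 2 for N9416 nanoP against -P, 3 to 5 for N9416 nanoP against mock, 2 to 4 for the difference of thorium effects on -P and mock in N8507 and in N9416, 1 to 2 for N8507 minus N8508 and 1 to 3 for N8507 minus N9416 in the response to -P, and 3 to 7 for N9416 against Col-0 on nanoP+Th. No paired analysis was possible because the labels give no replicate numbers shared between groups. PEN3 and CYP716A2 were below the count filter within N8507 and N8508, so their changes between media there were not detectable at this depth.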

Other observations

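SQE4 and SQE6, annotated as squalene epoxidase genes of a group for which that activity has not been shown, were at most 0.557 and 0.425 CPM in any library outside -P+Th. SQE4 was at 2.12, 1.07 and 7.14 CPM on -P+Th in N8507 and at 0 in its 3 -P libraries, a log2 fold change of at least 5.38 with a floor of 3 reads, and at 6.74, 2.31 and 2.49 CPM in N9416 (4.99, SE 0.75, edgeR adjusted p = 0.000153). In N8508 SQE4 was at 0.26, 0.549 and 1.29 CPM on -P+Th and in Col-0 at 0, 0 and 0.0677 CPM. SQE6 was at 4.56, 3.72 and 2.30 CPM on -P+Th in N8507 (at least 5.79), at 0.954, 1.46 and 1.13 CPM in N8508 (at least 3.60) and at 7.96, 3.80 and 2.5 CPM in Col-0, but at 0, 0 and 0.343 CPM in N9416. These genes were picked out after their values had been seen.

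THAA2, 3 loci from THAA, moved in the same direction as THAA in N8507, mostly at higher levels. It was at 23.2, 13.9 and 16.7 CPM on -P, 0.992, 1.13 and 0 CPM on -P+Th and 25.6, 27.4 and 28.0 CPM on nanoP+Th. On mock+Th THAA2 was at 8.63, 10.7 and 11.4 CPM, against 12.1 to 31 CPM on mock. Relative to mock this fall was smaller than that of THAA (0.624 to 0.729 against 4.08 to 6.21 CPM). LAS1 was at 0.661, 0.252 and 0 CPM on -P+Th in N8507 against 23.8 to 32.2 CPM on -P, and in Col-0 at 3.31, 0.590 and 0.542 CPM against 18.9 to 31.4 CPM.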
